A study of Mus musculus with 6 samples.

Results

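Clusterin, transferrin and 8 other products of the Sertoli cell, most of them secreted or largely restricted to that cell type, were followed through 6 mouse RNA-seq libraries. The 10 genes were chosen by symbol and found by Entrez Gene identifier: Clu, Trf, Ptgds, Cst9, Cst12, Aard, Defb19, Tsx, Mro and Hopx. They are 10 of 20007 identifiers in the deposited files, and 8 of them were among the 15272 genes with enough reads to be tested. Cst9 and Tsx were not.

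The libraries were made from total RNA of KM mice on the BGISEQ-500 platform, in 3 groups of 2, to compare chemically induced cells with Sertoli cells. MEFs were embryonic fibroblasts plated in culture; their age label is 13.5 days post coitum, and the protocol shared by the libraries also allows 12.5 days. CiSCs were MEFs that had been passaged, seeded, and exposed from 24 h later to small molecules that the labels do not name; no group of passaged MEFs without the compounds was analysed here, so passaging and compounds cannot be told apart. MSCs, here an abbreviation for mouse Sertoli cells, were prepared from testes at postnatal day 60 and also cultured. No genetic change is labelled in any group. The labels leave unsaid whether replicate libraries are separate animals or cultures, so each p-value speaks only of the variation among these libraries, and that may be technical.

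Sertoli cells line the seminiferous tubule, hold the developing germ cells and close the blood-testis barrier, behind which germ cells depend on what the Sertoli cell secretes. Transferrin carries iron to them, and clusterin is an abundant secreted chaperone of the tubule fluid. Cystatins inhibit cysteine cathepsins, beta-defensins are small cationic peptides of epithelia and the male tract, and the lipocalin-type prostaglandin D synthase encoded by Ptgds makes prostaglandin D2, which in the fetal testis helps to sustain Sertoli cell identity.

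Cst12 and Cst9, a pair from the cystatin cluster, had at most 1 read outside MSCs, Ptgds had 12 to 14 reads in each other group against 221 in MSCs, and the 250 bases before their annotated starts are shown to place that pattern beside the DNA it concerns. The sequences are RefSeq's for GRCm38.p6, a build other than the mm9 that the submitters named for alignment, and lie at chr2:148789115-148789364 on the plus strand for Cst12, chr2:148834897-148835146 on the plus strand for Cst9 and chr2:25469750-25469999 on the minus strand for Ptgds. Capitals mark matches to the motifs named next.
Cst12: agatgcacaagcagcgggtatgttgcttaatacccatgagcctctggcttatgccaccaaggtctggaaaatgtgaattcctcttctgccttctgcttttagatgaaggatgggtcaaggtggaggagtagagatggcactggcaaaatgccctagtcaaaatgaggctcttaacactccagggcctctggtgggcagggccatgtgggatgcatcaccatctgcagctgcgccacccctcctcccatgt
Cst9: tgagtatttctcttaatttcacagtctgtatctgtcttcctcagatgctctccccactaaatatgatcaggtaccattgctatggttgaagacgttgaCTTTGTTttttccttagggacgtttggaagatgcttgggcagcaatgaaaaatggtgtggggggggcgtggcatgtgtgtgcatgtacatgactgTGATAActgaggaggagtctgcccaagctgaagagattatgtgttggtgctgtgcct
Ptgds: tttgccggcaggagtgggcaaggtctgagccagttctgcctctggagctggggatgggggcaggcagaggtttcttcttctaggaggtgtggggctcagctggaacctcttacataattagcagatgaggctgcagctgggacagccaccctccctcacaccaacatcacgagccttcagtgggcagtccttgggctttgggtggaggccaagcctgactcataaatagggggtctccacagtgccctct
Of the 10 genes, 5 had an entry in the promoter table. Both strands were searched for GATA motifs (the sequence AGATAA, the sequence TGATAA, the sequence AGATAG or the sequence TGATAG), SOX motifs (the sequence AACAAT or the sequence AACAAAG), the NR5A1 motif AAGGTCA, the androgen receptor core motif TGTTCT and the TATA box TATAAA. No matches overlapped one another in the windows printed. The Cst9 window held TGATAA, starting 57 bases before the start, and AACAAAG on the other strand, 152 bases before it. No searched motif lay in the Cst12 or Ptgds window. Among 32851 mouse promoter windows of this length, 26.5% held a GATA motif and 13.8% a SOX motif, so a match is common. The NR5A1 motif was found in 4.08%, the androgen receptor core in 16.1% and TATAAA in 12.4%.

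Hopx has 2 annotated starts, and the window before the second, at chr5:77095268-77095517 on the minus strand, held a SOX motif (capitals, AACAAT read on the other strand, 179 bases before the start). The window before its other start held none.
Hopx, second start: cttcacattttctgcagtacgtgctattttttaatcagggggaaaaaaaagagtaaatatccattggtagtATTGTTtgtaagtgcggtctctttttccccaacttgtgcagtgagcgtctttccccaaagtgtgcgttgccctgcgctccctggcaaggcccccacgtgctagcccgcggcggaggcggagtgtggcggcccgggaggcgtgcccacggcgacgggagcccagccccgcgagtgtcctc

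Library totals ran from 19294671 to 20418587 expected counts, and 1 read equalled 0.0468 to 0.0543 CPM (reads relative to TMM-scaled library size). Between 42.0% and 43.8% of values in a library were not whole. Summed Sertoli cell markers stood at 929 to 1227 CPM in MSCs, 48.6 to 52.3 in CiSCs and 19.99 to 26.0 in MEFs. In MSCs 8 of 8 tested markers were higher than in MEFs, where 22.5% of all tested genes were higher. Gata4, Dmrt1 and Amh had at most 10 reads in each of MEFs and CiSCs. They were tested only through the MSC libraries and so had to differ there. The FSH receptor gene Fshr and Rhox5 were not tested and had 8 and 20 reads in MSCs, and Rhox5 had 16 in CiSCs. In CiSCs, labelled as induced Sertoli cells, 2 of the 8 tested Sertoli cell markers were higher than in MEFs and none lower. Among all tested genes 19.6% were higher and 21.3% lower in this comparison, and the few reads of Gata4, Dmrt1 and Amh left little room for a call. Wt1, a gonadal transcription factor, rose from 1.36 ± 0.0625 to 21.7 ± 0.902 CPM (edgeR adjusted p = 3.12e-05). Cldn11, a tight junction claudin, rose from 0.0766 ± 0.0348 to 1.09 ± 0.119 (edgeR adjusted p = 0.00231). Sox9 stood at 13.8 ± 2.52 CPM in MEFs and 15.8 ± 1.62 in CiSCs (edgeR adjusted p = 0.475), and the defining markers Gata4, Dmrt1 and Fshr had 4, 3 and 0 reads in CiSCs. All 8 tested markers were lower in CiSCs than in MSCs, where 25.1% of all tested genes were lower. Markers of other cells were also present in MSCs: Leydig cell markers summed to 1362 to 1395 CPM (2.44 to 3.76 elsewhere), though Cyp17a1, Lhcgr and Hsd17b3 had 1, 3 and 0 reads, and macrophage markers to 579 to 587 CPM. Macrophage markers reached 4453 to 6323 CPM in MEFs and 10.2 to 16.8 in CiSCs, with none of the 8 at 0 in any group. In such bulk samples fewer cells of a type and less RNA per cell cannot be told apart.

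Against MEFs, CiSCs gained 1 product, Clu, and lost 2, Trf and Hopx. Another 5 did not pass (Ptgds, Cst12, Aard, Defb19 and Mro). Over all tested genes 40.9% passed in this comparison, 19.6% higher and 21.3% lower in CiSCs. In MSCs against MEFs, 7 of the 8 rose and Trf did not pass, where 42.5% of all tested genes passed and 22.5% were higher. In CiSCs against MSCs, 7 of the 8 were lower in CiSCs and Clu did not pass, where 42.8% passed and 25.1% were lower. Ptgds, Cst12, Aard, Defb19 and Mro had enough reads to be tested only through the MSC libraries and so had to differ there; in a fit of CiSCs and MEFs alone, 3 of the 10 genes could be tested. These counts therefore describe the genes and are no support for a pattern. Genes were called where edgeR's quasi-likelihood test gave an adjusted p (Benjamini-Hochberg, over the 15272) under 0.05. Levels are CPM, mean ± SD over 2 libraries, and log2 fold changes stand with their standard error.

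**Figure D1:**
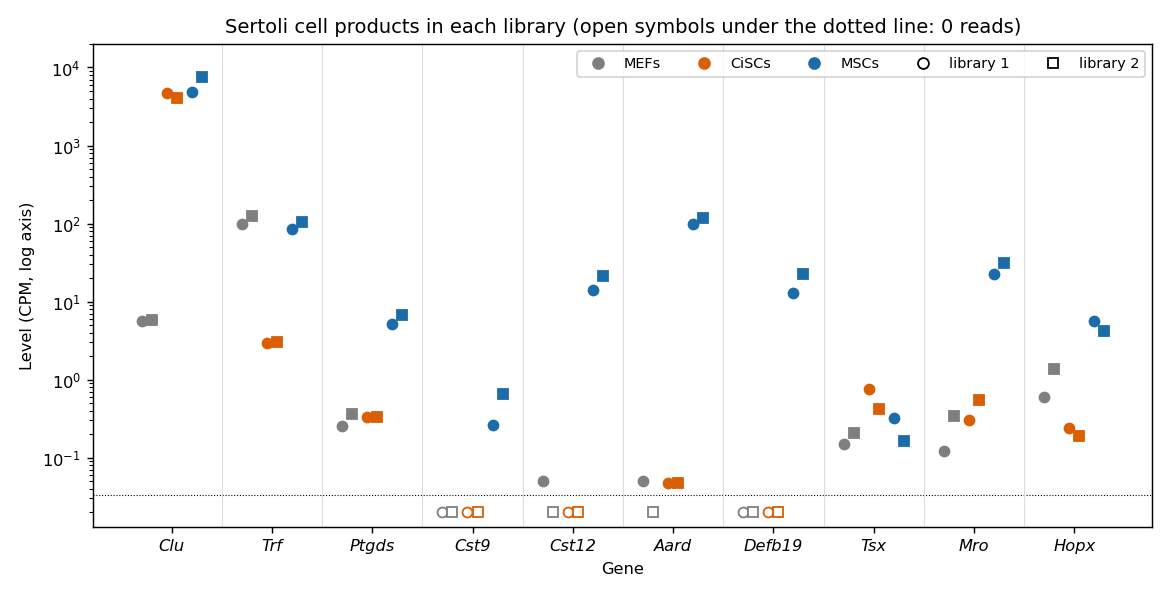
Level of each of the 10 genes (CPM, log axis) in each library, coloured by group, with a circle for library 1 and a square for library 2; open symbols below the dotted line have 0 reads and are placed there for display. Clu is high in both CiSCs and MSCs, Trf in both MEFs and MSCs, and Aard, Cst12, Defb19 and Mro in MSCs.

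Clu encodes clusterin, the secreted chaperone also called sulfated glycoprotein 2. It stood at 5.66 and 5.87 CPM in the MEF libraries (112 and 113 reads), at 4734 and 4020 CPM in the CiSC libraries and at 4852 and 7530 CPM in the MSC libraries. MEFs lay far below both other groups, and CiSCs lay below MSCs without overlap, by a margin smaller than the gap between the MSC libraries. The log2 difference of CiSCs from MEFs was 9.57 ± 0.34 (95% interval 8.74 to 10.39, edgeR adjusted p = 1.49e-05), and that of MSCs from MEFs was 10.07 ± 0.35 (edgeR adjusted p = 1.17e-05). CiSCs differed from MSCs by -0.50 ± 0.23 (95% interval -1.06 to 0.06, edgeR adjusted p = 0.133), which did not pass. The size of that difference depended on single libraries: it was -0.15 without MSC library 2 and -0.78 without MSC library 1. Among the 10 genes Clu was the 1 called higher in CiSCs than in MEFs, and the 1 of the 8 tested for which CiSCs did not pass against MSCs.

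Receptors and partners of clusterin went both ways in CiSCs. Of the 8 tested genes of this list (9 listed), 2 were higher and 6 lower in CiSCs than in MEFs, where 19.6% and 21.3% of all tested genes were. The median log2 difference was -1.51 against -0.00 over all tested genes. Lrp1, the receptor of the list with the highest level, rose from 2257 ± 188 to 3364 ± 454 CPM (edgeR adjusted p = 0.0320). It is named outside the rule for named genes. Trem2, a lipid and clusterin receptor of myeloid cells, fell from 194 ± 87.5 to 0.497 ± 0.107 CPM (edgeR adjusted p = 3.70e-05), and Apoe, apolipoprotein E, from 2205 ± 1333 to 16.7 ± 2.39 (edgeR adjusted p = 1.33e-04). Both fell beside the macrophage markers given above, whose part in these falls was not tested. Vldlr, a lipoprotein receptor, rose from 30.4 ± 9.74 to 93.5 ± 8.95 CPM (edgeR adjusted p = 0.00202), and Lrp8, the apolipoprotein E receptor 2, fell from 19.7 ± 2.51 to 5.62 ± 1.47 (edgeR adjusted p = 0.00109). In MSCs, Lrp8 stood at 71.3 ± 7.60 and Vldlr at 117 ± 1.03 CPM, and both were higher than in MEFs.

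The genes whose profile over the 6 libraries lay nearest to that of Clu, by Euclidean distance of centred log2 CPM, were Fmo2, Kcnd3 and Cygb at distances of 2.66, 3.45 and 3.70. Fmo2, a flavin-containing monooxygenase, stood at 0.254 ± 0.213 CPM in MEFs, 279 ± 7.70 in CiSCs and 85.9 ± 10.2 in MSCs. Kcnd3, a potassium channel subunit, stood at 0, 11.1 ± 0.0193 and 11.9 ± 0.502 CPM in the same order. Cygb, the globin cytoglobin, stood at 0.154 ± 0.00297, 15.3 ± 2.09 and 60.8 ± 2.68 CPM. The profile of Clu had no close match by this measure: the nearest genes to Trf, Ptgds and Aard lay at distances from 0.298 to 0.709.

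Trf encodes transferrin. Its levels were 99.9 and 123 CPM in MEFs, 2.97 and 3.04 in CiSCs and 85.3 and 105 in MSCs. MEFs and MSCs overlapped, and both CiSC libraries lay far below every other library. CiSCs were lower than MEFs by a log2 difference of -5.21 ± 0.21 (edgeR adjusted p = 1.71e-05) and lower than MSCs by -4.99 ± 0.21 (edgeR adjusted p = 1.53e-05). MSCs differed from MEFs by -0.23 ± 0.17 (95% interval -0.63 to 0.17, edgeR adjusted p = 0.310), which did not pass; without MEF library 1 it was -0.40 and passed (edgeR adjusted p = 0.0326). Macrophage markers were highest in MEFs and lowest in CiSCs, as shown beside Trf in the plot of summed markers, but were lower in MSCs than in MEFs (8 of 8 fell) where Trf did not pass; their part in the values of Trf was not tested. Reads of Trf could be shared with a predicted gene: 79.8% of the 50-base windows of its longest coding transcript also occur in Gm20425, which overlaps its exons on the same strand, and Trf had non-whole read estimates in all 6 libraries.

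**Figure D2:**
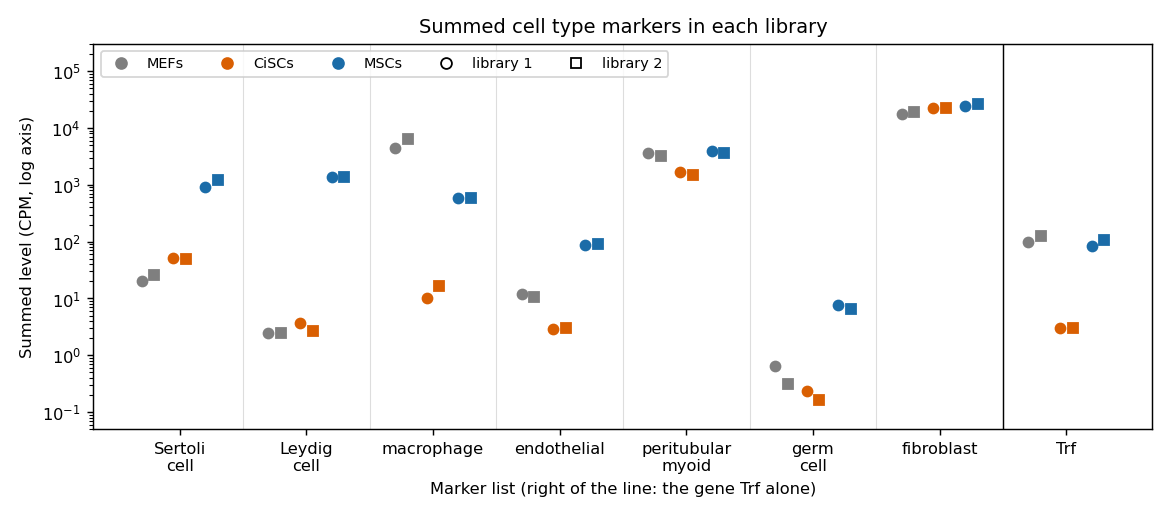
Summed level (CPM, log axis) of 7 lists of cell type markers in each library and, right of the line, the level of Trf alone, coloured by group. Macrophage markers fall from MEFs to MSCs to CiSCs, and Leydig and Sertoli cell markers are highest in MSCs.

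The 3 genes nearest to Trf in profile were Coro2a, Slc37a1 and Frmd4b, at distances of 0.298, 0.433 and 0.448. Coro2a, an actin-binding coronin, stood at 19.7 ± 0.257 CPM in MEFs, 0.409 ± 0.0491 in CiSCs and 16.9 ± 1.72 in MSCs. Frmd4b stood at 32.4 ± 3.45, 1.09 ± 0.185 and 32.0 ± 2.58 CPM, and Slc37a1, a sugar-phosphate carrier, at 5.71 ± 1.56, 0.0706 ± 0.0324 and 4.23 ± 0.938 CPM.

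Of 15 tested genes of iron handling (16 listed), 2 were higher and 8 lower in CiSCs than in MEFs (median log2 difference -0.82, against -0.00 over all tested genes). Against MSCs, 1 was higher and 11 lower in CiSCs (median -1.55, against -0.03 over all tested genes). Among all tested genes 19.6% were higher and 21.3% lower in the first comparison, and 17.7% and 25.1% in the second. Fth1, the ferritin heavy chain, fell from 3525 ± 1348 CPM in MEFs to 410.5 ± 3.27 in CiSCs (edgeR adjusted p = 2.95e-04), and Steap3, the endosomal ferrireductase of the transferrin cycle, from 110 ± 19.0 to 32.9 ± 1.82 (edgeR adjusted p = 3.11e-04). Hfe, which binds the transferrin receptor, fell from 29.3 ± 11.8 to 2.50 ± 0.101 CPM (edgeR adjusted p = 2.94e-04). Macrophage markers fell in 8 of 8 in this comparison, from 4453 to 6323 CPM in MEFs to 10.2 to 16.8 in CiSCs, and their part in the lower iron genes was not tested. The copper oxidase ceruloplasmin, Cp, went the other way, from 12.6 ± 1.07 CPM in MEFs to 47.2 ± 4.53 in CiSCs (edgeR adjusted p = 1.69e-04) and 317 ± 24.6 in MSCs (edgeR adjusted p = 1.20e-05). In MSCs against MEFs, 6 were higher and 4 lower, where 42.5% of all tested genes passed and 22.5% were higher. Among the higher was Heph, the membrane-bound relative of ceruloplasmin, at 5.65 ± 2.70 in MEFs and 219.6 ± 36.6 CPM in MSCs (edgeR adjusted p = 1.25e-04). Lcn2, a siderophore-binding lipocalin, was another, at 0.793 ± 0.166 and 37.4 ± 0.152 (edgeR adjusted p = 1.59e-05). Tfr2, the second transferrin receptor, stood at 0.698 ± 0.263 CPM in MEFs and 10.1 ± 3.08 in MSCs (edgeR adjusted p = 4.44e-04).

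Ptgds had 0.253 and 0.364 CPM in MEFs, 0.334 and 0.327 in CiSCs and 5.21 and 6.68 in MSCs, from 12, 14 and 221 reads per group. The CiSC libraries lay between the MEF libraries, and both MSC libraries lay above all others. MSCs were higher than MEFs by a log2 difference of 4.24 ± 0.36 (edgeR adjusted p = 2.30e-04), and CiSCs were lower than MSCs by -4.14 ± 0.35 (edgeR adjusted p = 1.94e-04). CiSCs differed from MEFs by 0.10 ± 0.45 (95% interval -0.97 to 1.17, edgeR adjusted p = 0.896), so a difference within that interval was not detectable at this depth. Its nearest genes in profile were Adh4, a retinol-oxidising alcohol dehydrogenase (0 CPM in MEFs and CiSCs, 1.40 ± 0.401 in MSCs, distance 0.326), Gml2 (0, 0 and 1.22 ± 0.136 CPM, distance 0.355) and the secreted protease gene Htra3 (9.99 ± 2.19, 9.62 ± 1.57 and 158 ± 7.07 CPM, distance 0.370).

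In the prostaglandin list, which also holds the enzymes before and beside Ptgds, 11 of 13 genes were tested. In CiSCs against MEFs 2 were higher and 5 lower (median -0.48), in MSCs against MEFs 3 and 5 (median -0.38), and in CiSCs against MSCs 2 and 6 (median -1.13). Over all tested genes the medians were -0.00, 0.01 and -0.03 and the shares called 40.9%, 42.5% and 42.8%. Hpgds, the hematopoietic prostaglandin D synthase, fell from 66.0 ± 27.5 CPM in MEFs to 0.588 ± 0.0472 in CiSCs (edgeR adjusted p = 5.98e-05) and 5.62 ± 0.936 in MSCs (edgeR adjusted p = 3.06e-04), beside the fall of the macrophage markers, whose part was not tested. Hpgd, which inactivates prostaglandins, had 37.5 ± 10.3 CPM in MEFs, 37.2 ± 2.02 in MSCs and 1 read in CiSCs, which were lower than both (edgeR adjusted p = 2.58e-05 and 2.19e-05). Ptgis, prostacyclin synthase, rose from 6.38 ± 2.52 CPM in MEFs to 24.5 ± 0.496 in CiSCs (edgeR adjusted p = 0.00163) and 112 ± 4.63 in MSCs (edgeR adjusted p = 8.88e-05). The prostaglandin D2 receptor genes Ptgdr and Ptgdr2, named for their place in the list and outside the rule for named genes, were not tested and had 19 and 14 reads in CiSCs and at most 2 in either other group.

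Cst12 and Cst9 encode secreted cystatins of the reproductive tract, and the sequences before their starts are printed above. Cst12 had 1 and 0 reads in MEFs, 0 and 0 in CiSCs, and 261 and 387 reads, or 13.9 and 21.0 CPM, in MSCs. Every MSC value lay above every other. By read counts MSCs exceeded MEFs 679-fold (95% counting interval 121 to 26868, edgeR adjusted p = 2.21e-04), and CiSCs were at least 246-fold lower than MSCs, taking 3 reads over the group as the limit that a count of 0 allows (edgeR adjusted p = 1.61e-04). Cst9 had 0 reads in all 4 MEF and CiSC libraries and 5 and 12 reads in MSCs (0.266 and 0.652 CPM). That is at least 5.97-fold above MEFs and at least 6.48-fold above CiSCs. With no filter on low counts, Cst9 passed in edgeR (adjusted p = 0.0485 against MEFs and 0.0447 against CiSCs) but not in DESeq2 (adjusted p = 0.134 and 0.128). Counting intervals and limits of this kind cover counting error only.

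The genes on either side of this pair were looked up by position in RefSeq, outside the rule for named genes and after values had been seen. Cstdc1, next to Cst12, had 313 and 442 reads in MSCs (20.3 ± 5.21 CPM), 0 in MEFs and 1 in CiSCs, and was at least 264-fold higher in MSCs than in MEFs (edgeR adjusted p = 1.60e-04). Cst11 and Cst8, also beside Cst12 and Cstdc1, had 15 and 11 reads in MSCs and 0 elsewhere and were not tested. Cstdc2, next to Cst9, had 8 reads in MSCs, 4 in MEFs and 1 in CiSCs. Cst3, the broadly made cystatin C gene beyond Cst9, stood at 474 ± 77.5 CPM in MEFs, 178 ± 1.46 in CiSCs and 518 ± 11.8 in MSCs. Cstl1, next to Cst11, had 2 reads in MSCs, 1 in MEFs and 3 in CiSCs, and Cst13 and Cst10 of this stretch were not in the files. Reads in MSCs against almost none elsewhere were seen at 5 cystatin genes of this stretch, from few reads in 3 of them. They were not seen at Cstdc2, Cst3 or Cstl1. Cst12 and Cstdc1 had enough reads to be tested only through the MSC libraries and so had to differ there. The share of all genes with such reads was not counted, so these values describe the stretch and do not set it apart.

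Of 18 cystatin genes listed, Cst9 and Cst12 included, 12 were in the files and 5 were tested. In CiSCs against MEFs 0 were higher and 4 lower (Cst3, Cst7, Cstb and Csta2), where 19.6% and 21.3% of all tested genes were. Cst7, the leukocyte cystatin F gene, fell from 15.3 ± 2.33 CPM in MEFs to 2 reads in CiSCs and 2 in MSCs (edgeR adjusted p = 1.89e-04 and 2.07e-04), and Cstb, an intracellular cystatin, from 196 ± 82.2 to 54.4 ± 4.73 CPM in CiSCs (edgeR adjusted p = 0.00290). Cst12 was the 1 tested cystatin higher in MSCs than in MEFs, and it and Cst3 were the 2 lower in CiSCs than in MSCs. Of their target proteases, the cysteine cathepsins, 10 of 11 were tested. In CiSCs against MEFs 1 was higher and 7 lower (median -1.92). In MSCs against MEFs 3 were higher and 4 lower, where 42.5% of all tested genes passed and 22.5% were higher. In CiSCs against MSCs 0 were higher and 8 lower (median -1.96), where 17.7% and 25.1% of all tested genes were. Ctss, a protease of antigen-presenting cells, fell from 600 ± 236 CPM in MEFs to 1.20 ± 0.551 in CiSCs (edgeR adjusted p = 3.24e-05). In the same comparison 8 of 8 macrophage markers fell (median log2 difference -8.71), and their part in the falls of the cystatins and cathepsins was not tested. Ctsl, a cathepsin that Sertoli cells secrete, rose from 776 ± 116 CPM in MEFs to 2366 ± 409 in MSCs (edgeR adjusted p = 9.87e-04), and Ctsh, an aminopeptidase, from 16.5 ± 3.51 to 226 ± 8.56 (edgeR adjusted p = 3.85e-05).

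Defb19 encodes a beta-defensin known from Sertoli cells of the fetal testis. No read was counted in any MEF or CiSC library, against 240 and 416 reads, or 12.8 and 22.6 CPM, in MSCs. MSCs were at least 230-fold above MEFs (edgeR adjusted p = 8.17e-04) and at least 249-fold above CiSCs (edgeR adjusted p = 6.71e-04). Of 40 beta-defensin genes listed 14 were in the files and 4 were tested. Higher in MSCs than in MEFs were Defb19 itself, Defb36 and Defb42; like Cstdc1 above, these had enough reads to be tested only through the MSC libraries and so had to differ, and their number is no support for a pattern. Defb36, which lies 2 genes from Defb19, had 320 and 394 reads in MSCs and 0 in every other library (at least 249.8-fold above MEFs, edgeR adjusted p = 2.43e-04). Defb42 had 66 reads in MSCs and 0 elsewhere (edgeR adjusted p = 0.00330 against MEFs). Defb21 and Defb45, the genes directly beside Defb19, had 1 and 3 reads in MSCs, so reads in MSCs did not extend evenly over its neighbours.

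Aard encodes an alanine- and arginine-rich protein known from the Sertoli cell. It had 1 and 0 reads in MEFs and 1 and 1 in CiSCs, against 1834 and 2165 reads, or 97.5 and 118 CPM, in MSCs. Both MSC libraries lay far above the others, and CiSCs and MEFs were each at or under 3 reads, so no fold is given between them. By read counts MSCs exceeded MEFs 4192-fold (95% counting interval 752 to 165599, edgeR adjusted p = 1.10e-05) and CiSCs 2275-fold (629 to 18788, edgeR adjusted p = 8.92e-06). Among its nearest genes in profile were Trank1 (0.0506 ± 0.0715, 0.0940 ± 0.0655 and 146 ± 20.9 CPM in MEFs, CiSCs and MSCs, distance 0.624) and the zinc transporter gene Slc30a2 (0, 0 and 60.5 ± 14.7 CPM, distance 0.709).

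Mro encodes maestro, named for its male-specific transcription in the developing reproductive organs. It stood at 0.121 and 0.340 CPM in MEFs, 0.302 and 0.547 in CiSCs and 22.6 and 31.2 in MSCs. CiSCs and MEFs overlapped, and the MSC libraries lay above both. MSCs were higher than MEFs by 6.83 ± 0.48 on the log2 scale (edgeR adjusted p = 1.09e-04), and CiSCs were lower than MSCs by -5.96 ± 0.44 (edgeR adjusted p = 1.07e-04). The difference of CiSCs from MEFs was 0.86 ± 0.66 (95% interval -0.73 to 2.45, edgeR adjusted p = 0.334) and rested on 18 and 9 reads.

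Hopx, a homeodomain-only cofactor that does not bind DNA itself, stood at 0.605 and 1.35 CPM in MEFs, 0.239 and 0.187 in CiSCs and 5.58 and 4.18 in MSCs. The 3 groups did not overlap, with CiSCs lowest. MSCs were higher than MEFs by 2.31 ± 0.43 (log2, edgeR adjusted p = 0.00591; 0.0575 without MSC library 1), and CiSCs were lower than MSCs by -4.48 ± 0.51 (edgeR adjusted p = 6.89e-04). CiSCs were lower than MEFs by -2.17 ± 0.56 (edgeR adjusted p = 0.0222), from 9 and 38 reads. That call was lost without MEF library 2 (0.0648), CiSC library 1 (0.0894), CiSC library 2 (0.119) or MSC library 1 (0.0526). Hopx also shares 8.91% of its transcript windows with the antisense gene Hopxos, and with the strand of counting unknown reads of the pair cannot be told apart.

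Tsx, the testis-specific X-linked gene, had 3 and 4 reads in MEFs, 16 and 9 in CiSCs and 6 and 3 in MSCs (0.152 and 0.208, 0.763 and 0.421, and 0.319 and 0.163 CPM). CiSCs lay above both other groups without overlap, and it was the 1 of the 10 genes with its highest mean in CiSCs. By read counts CiSCs exceeded MEFs 3.29-fold (95% counting interval 1.38 to 9.01) and MSCs 2.44-fold (1.10 to 5.95). With no filter on low counts neither difference passed in edgeR (adjusted p = 0.108 and 0.187), so neither could be called at this depth.

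**Figure D3:**
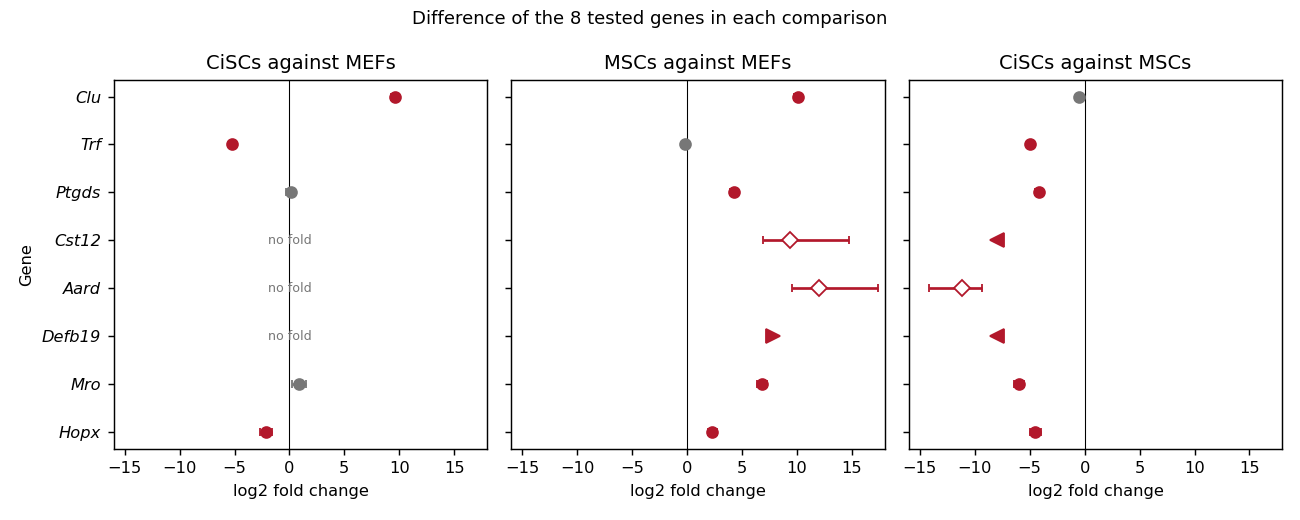
Log2 difference of the 8 tested genes in the 3 comparisons, red where the adjusted p was under 0.05 and grey where not. Filled circles are fitted values ± standard error, open diamonds are ratios of reads with their 95% counting interval, and triangles are lower bounds of the size against a group with 0 reads. Clu is the 1 gene right of 0 and red in the first panel and near 0 in the third.

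Per kilobase of the longest coding transcript, the order of the levels in MSCs was Clu (3420 CPM per kb), Aard (79.8), Defb19 (44.9), Trf (37.1), Cst12 (27.1), Mro (12.3), Ptgds (6.60), Hopx (3.87), Cst9 (0.668) and Tsx (0.297). The library values of Defb19 overlapped those of Trf and, narrowly, those of Cst12, and Cst9 overlapped Tsx; the other neighbours in this order did not overlap. Trf moved from rank 4 to rank 2 when the median transcript length was used. In CiSCs the order began with Clu at 2418 CPM per kb and went on with Trf at 1.17, Tsx at 0.729 and Ptgds at 0.367. Clu thus stood alone among the 10 products in CiSCs, while in MEFs Trf led at 43.4 CPM per kb, followed by Clu at 3.19.

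Between the libraries of a group, 415 tested genes lay over 2-fold apart in MSCs, 477 in CiSCs and 1416 in MEFs. The MSC libraries, the most alike pair by this count, still differed from each other in these products. Of the 8 genes with over 20 reads there, 7 were higher in library 2, by a median log2 ratio of 0.41, where 7356 of all 15272 tested genes were higher (median -0.01). The ratio of library 2 to library 1 was 1.55 for Clu, 1.52 for Cst12 and 1.77 for Defb19, and 0.749 for Hopx, the exception. The Sertoli cell markers moved the same way in 8 of 8 (median 0.41), while Leydig cell markers had a median of 0.04 (4 of 5 higher), macrophage markers -0.02 (3 of 8), endothelial markers 0.05 (4 of 5), peritubular myoid markers -0.01 (2 of 5) and fibroblast markers 0.04 (4 of 6). With 1 pair of libraries this is a description and has no test, and what set the libraries apart was not tested.

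**Figure D4:**
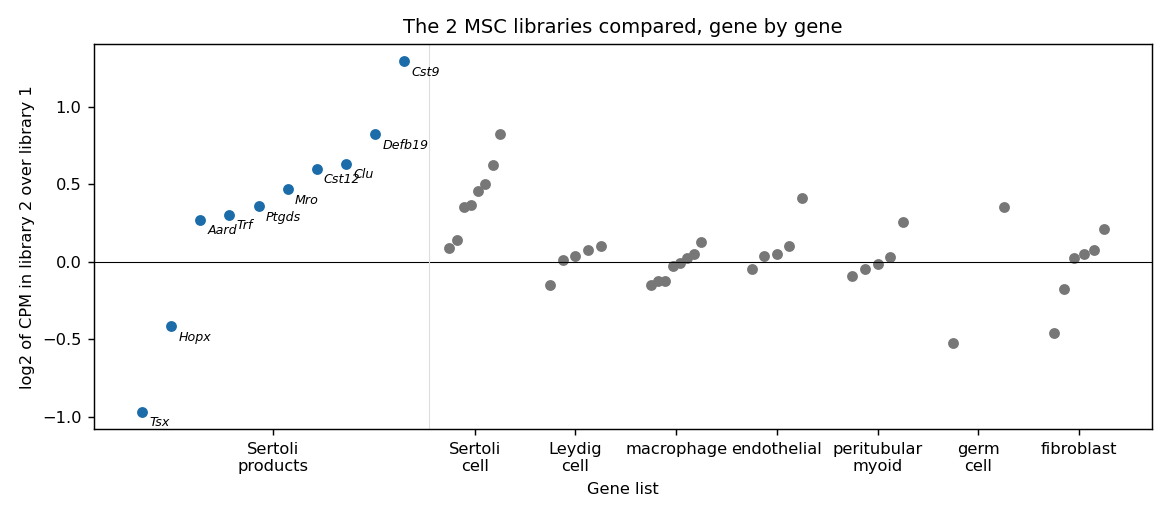
Log2 of the CPM in MSC library 2 over library 1 for the 10 products (blue, named) and for tested genes with over 20 reads in 7 marker lists (grey). Of the products, 8 of 10 lie above 0, with Hopx and the thinly read Tsx below, and the 8 Sertoli cell markers also lie above 0.

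A wider list of 31 other products that Sertoli cells secrete was counted beside the 10. Of 30 tested, 9 were higher and 8 lower in CiSCs than in MEFs (median log2 difference 0.06). In MSCs against MEFs 18 were higher and 5 lower (median 1.91). In CiSCs against MSCs 4 were higher and 23 lower (median -2.72). Among all tested genes 19.6% were higher and 21.3% lower in the first comparison. In the second 42.5% passed and 22.5% were higher, and in the third 17.7% were higher and 25.1% lower. The medians over all tested genes were -0.00, 0.01 and -0.03. Igfbp3, an IGF-binding protein, is a case like Clu: it stood at 88.9 ± 14.3 CPM in MEFs, 948 ± 103 in CiSCs (edgeR adjusted p = 4.11e-05) and 1134 ± 82.3 in MSCs, and CiSCs did not pass against MSCs (edgeR adjusted p = 0.269). Jag1, a Notch ligand, fell from 81.8 ± 14.9 CPM in MEFs to 10.2 ± 0.661 in CiSCs (edgeR adjusted p = 5.40e-05) and stood at 31.9 ± 0.540 in MSCs. Dhh, the hedgehog ligand of the Sertoli cell, had 4 reads in MEFs, 8 in CiSCs and 42.2 ± 6.69 CPM in MSCs (CiSCs against MSCs, edgeR adjusted p = 1.89e-05). Wnt4 stood at 7.13 ± 2.34, 0.383 ± 0.00897 and 72.0 ± 2.87 CPM, lower in CiSCs than in either other group (edgeR adjusted p = 1.70e-04 against MEFs and 1.70e-05 against MSCs).

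**Figure D5:**
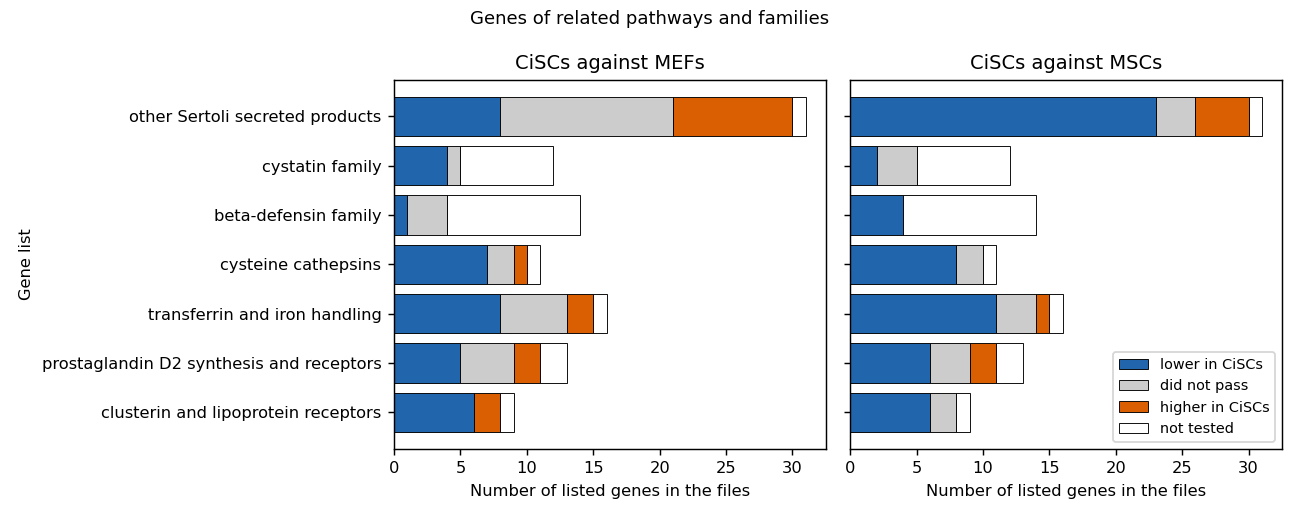
Number of listed genes that were lower in CiSCs (blue), did not pass (grey), were higher in CiSCs (orange) or were not tested (white), for 7 lists related to the 10 products, in CiSCs against MEFs (left) and CiSCs against MSCs (right). In the right panel lower calls outnumber higher ones in every list, 23 to 4 among the other Sertoli secreted products. Among all tested genes 25.1% were lower and 17.7% higher in that comparison.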

How the data were processed

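Values were the authors' deposited expected counts per gene, which are estimates and often not whole, 1 file per library, under Entrez Gene identifiers, per the file headers. HISAT and mm9 are named per the submitters' processing notes; the counting program, annotation, filter and strand are not given in the sources used here, and the values alone do not exclude a normalised unit. Of 20007 identifiers, 18891 matched a symbol in a RefSeq table (GRCm38), as did all 10 members.

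Counts were rounded and fitted in R 4.3.3 with edgeR 4.0.16: filterByExpr, TMM scaling, 1 mean per group over all 6 libraries (3 residual degrees of freedom), two-sided quasi-likelihood F tests, standard error as size over root F. Log2 CPM used a prior count of 2. A group at 0 was bounded at 3 reads, which is 0.0769 CPM for MEFs, 0.0709 for CiSCs and 0.0806 for MSCs. The procedure was tested on simulated data.

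The 10 genes, lists and marker sets were chosen with earlier results of these data known. Genes named from a list were up to 4 with the smallest adjusted p in a comparison, or the 2 highest where none passed; nearest profiles were the 3 closest, of which 1 gene is not reported here. Endothelial markers summed to 87.3 to 91.9 CPM in MSCs, 2.86 to 3.02 in CiSCs and 10.5 to 11.9 in MEFs, germ cell markers to 6.65 to 7.58, 0.163 to 0.239 and 0.312 to 0.641, peritubular myoid markers to 3683 to 3864, 1515 to 1682 and 3199 to 3561, and fibroblast markers to 24065 to 26603, 22746 to 22836 and 17758 to 18853. Alternatives were each library left out, a replicate block, 2 groups only, adjusted p under 0.01, no filter, at least 5 CPM in 2 libraries, median-ratio factors, DESeq2 1.42.0 and counts not rounded. No library was left out of the reported values.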

Additional observations from a re-analysis of the deposited data

How the results depend on the processing

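Of 307 log2 differences over the alternative settings, 299 kept their direction and their side of the threshold. Another 6 lost the call, 1 gained it and 1 changed sign. Those at an adjusted p under 0.01 are the main values at a stricter threshold, so their direction could not change. The change of sign was Ptgds in CiSCs against MEFs, at -0.16 without MEF library 1 and 0.38 without MEF library 2. With a library left out, 9 or 10 of the 10 products were tested in place of 8, so counts of calls there do not compare with the main ones. Under the filter of 5 CPM 6 of the 10 were tested. Of these, 2 were called in CiSCs against MEFs, 5 in MSCs against MEFs and 5 in CiSCs against MSCs. Over all tested genes the number called was 6250, 6497 and 6534 in these 3 comparisons. It ran from 3395 to 9487, 3516 to 9745 and 3910 to 9369 with a library left out, the lone library then being assumed to vary like the other groups, and was 3774, 4009 and 4324 at an adjusted p under 0.01.

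With the replicate number as a block, 3, 7 and 7 products and 5468, 5672 and 5814 genes were called, and no call among the products changed. Deviations of same-numbered libraries from their group means correlated at -0.21 for MEFs and CiSCs. The values were 0.14 for MEFs and MSCs and -0.13 for CiSCs and MSCs. With 2 libraries per group they cannot settle whether same-numbered libraries are paired.

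Scaling by library totals and the median transcript length were chosen after seeing the data. Library totals shifted the median of all genes to 0.11, -0.10 and 0.21, and put Clu in CiSCs against MSCs at -0.26. Depth limits Cst9, Tsx and, in CiSCs and MEFs, Ptgds, Mro and Hopx, at under 40 reads per group.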
